A study of Rattus norvegicus with 4 samples.

Results

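The genes of DNA replication and mitosis were read in NR8383, an alveolar macrophage line started from the lung lavage of a normal rat, after 4 h with NRCWE055. NRCWE055 is a pristine single-walled carbon nanotube, given at 11 cm2/cm2. The gene set was fixed by name and held 34 genes, 15 of mitosis and 19 of replication and the G1/S transition. Through RefSeq accessions 33 of the 34 were matched to probes, out of 16581 named genes on the array, and no probe was matched to Mcm5. The 4 samples form 1 exposed group of cells at 20 passages, which the study design calls biological replicates. The source names of replicates 2, 3 and 4 read NRCWE056, NRCWE057 and NRCWE058, whereas the titles of all 4 samples name NRCWE055, and the titles were followed. The design also names cells without nanotubes, which were not analysed here. Every value therefore describes exposed cells, and none is a response to the nanotubes.

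A dividing cell first loads the MCM helicase onto replication origins with the help of Cdc6 and Cdt1, and then fires them in S phase, when thymidylate and deoxynucleotide enzymes supply the polymerases. Cyclin A, cyclin B and Cdk1 then carry the cell into mitosis, where polo-like and Aurora kinases build the spindle and the checkpoint kinases hold anaphase until all chromosomes are attached. Many replication genes are driven by E2F transcription factors through a promoter element of that name. Many mitosis genes are regulated by the DREAM and MuvB complexes through the cell cycle homology region (CHR), often beside CCAAT boxes bound by NF-Y. Most macrophages in tissue divide rarely, whereas NR8383 is a line kept by continuous culture.

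Promoter letters of these elements were counted first. A window from 250 bases before to 50 bases after the start site was available in RefSeq for 27 members (GRCr8), 13 of mitosis and 14 of replication. One of the E2F letters TTTCCCGC, TTTCGCGC, TTTGCCGC or TTTGGCGC, on either strand, occurred in 8 of 14 replication promoters and in 1 of 13 mitosis promoters, against 2.25% of 27457 promoter windows of the same length. The CHR letters TTTGAA or TTCGAA occurred in 9 of 13 mitosis promoters and 3 of 14 replication promoters, against 19.5% of all. CCAAT occurred in 10 of 13 and 9 of 14, against 37.7%, and CHR together with CCAAT in 8 of 13 and 2 of 14, against 7.83%. CHR and E2F letters never overlapped a CCAAT match in the stretches below, but a pair of E2F matches on opposite strands can share bases. These counts are matches of letters and not evidence of binding.

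The 140 bases just before the start site are shown for 3 mitosis genes and 3 replication genes, chosen as examples of how the elements are laid out. The counts above cover the longer window, and matches outside these stretches are not shown: the Mcm2 window holds 2 CHR matches farther upstream, at -215 and -175 from the start site, and is 1 of the 3 replication promoters with a CHR. Capitals mark E2F, CHR and CCAAT matches on either strand, and ATTGG is CCAAT read on the other strand. All are from GRCr8. They lie at chr8:79981659-79981798 (minus strand) for Ccnb2, chr5:137255800-137255939 (minus) for Cdc20, chr20:19265153-19265292 (plus) for Cdk1, chr4:122918095-122918234 (minus) for Mcm2, chr13:42404353-42404492 (minus) for Mcm6 and chr3:160184780-160184919 (plus) for Gins1.
Ccnb2: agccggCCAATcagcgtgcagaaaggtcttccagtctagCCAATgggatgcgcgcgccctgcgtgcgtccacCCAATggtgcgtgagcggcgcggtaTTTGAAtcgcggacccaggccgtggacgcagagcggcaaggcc
Cdc20: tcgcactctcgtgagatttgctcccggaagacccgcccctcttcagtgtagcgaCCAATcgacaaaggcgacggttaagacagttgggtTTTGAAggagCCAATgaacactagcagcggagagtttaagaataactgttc
Cdk1: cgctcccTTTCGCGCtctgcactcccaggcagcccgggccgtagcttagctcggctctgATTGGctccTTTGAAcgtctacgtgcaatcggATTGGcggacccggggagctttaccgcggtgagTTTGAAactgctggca
Mcm2: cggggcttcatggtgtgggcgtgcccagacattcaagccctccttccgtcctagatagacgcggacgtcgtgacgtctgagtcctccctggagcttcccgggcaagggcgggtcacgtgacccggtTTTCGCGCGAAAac
Mcm6: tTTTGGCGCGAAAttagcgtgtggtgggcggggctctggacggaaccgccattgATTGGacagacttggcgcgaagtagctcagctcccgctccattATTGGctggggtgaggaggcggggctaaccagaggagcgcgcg
Gins1: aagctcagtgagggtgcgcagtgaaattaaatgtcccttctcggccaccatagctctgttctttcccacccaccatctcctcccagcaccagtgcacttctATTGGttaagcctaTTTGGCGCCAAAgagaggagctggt
The Ccnb2 promoter holds 3 CCAAT boxes in a row and then a CHR, the Cdc20 promoter a CHR between a pair of CCAAT boxes, and the Cdk1 promoter all 3 elements. Cdk1 was the mitosis gene with an E2F match. In the Mcm2, Mcm6 and Gins1 promoters a pair of E2F matches on opposite strands overlaps in part.

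All 33 matched members were well above background on all 4 arrays, 15 of 15 mitosis genes and 18 of 18 replication genes. Over all named genes 52.4% were. Both marker genes of proliferation, Mki67 and Ccnb1, were among those detected. All 8 macrophage and alveolar macrophage markers were detected on all arrays, among them the alveolar macrophage gene Siglec5 at -5.93. Of 14 markers of other cell types with a probe, 1 was detected on all arrays (the endothelial gene Cdh5, at -5.49) and 10 on none. The signal used for scaling, the 75th percentile over commonly detected probes, ran from 1756 to 2861 across the arrays, and no spot was saturated. Having 4 arrays limits how precisely any level is known.

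Levels are log2 of the processed signal relative to each array's 75th percentile, given as mean ± SD over the 4 arrays (n = 4). A level belongs to its probe, since probes differ in how well they bind, so levels of different genes are not ranked. In a culture, fewer dividing cells and less RNA per dividing cell cannot be told apart.

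Among the cyclins and Cdk1 of mitotic entry, values on the arrays lay close together. Ccnb1, the B-type cyclin that activates Cdk1, was at 0.36, 0.32, 0.41 and 0.42 on replicates 1 to 4 (0.38 ± 0.047). Ccnb2, the second B-type cyclin, was at 1.17 ± 0.023, and Cdk1, the kinase both bind, at 2.87 ± 0.060. Ccna2, the cyclin of S phase and early mitosis, was at -1.47 on replicate 1 and between -1.27 and -1.22 on the others, so replicate 1 lay lowest. The proliferation marker Mki67, which coats mitotic chromosomes, was at -2.16, -2.33, -2.17 and -2.13, with replicate 2 lowest. This level is a mean of 4 probes that did not share an order. The probe printed 10 times was lowest on replicate 1, at -0.11 against -0.02 on replicate 2, as was a singly printed probe. The remaining probes were lowest on replicate 2, among them the dimmest, singly printed one, at -4.68.

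The mitotic kinases included the most and the least even of the mitosis genes. Aurka, the kinase of the spindle poles, was at -1.11, -1.08, -1.07 and -1.11, an SD of 0.021. Aurkb, the kinase of the chromosomal passenger complex at centromeres, was at -1.96, -1.85, -1.77 and -1.60, a range of 1.28-fold with replicate 4 highest. Its partner Birc5 (survivin), in the same complex, was at 1.55 ± 0.048. Ttk (Mps1), the kinase at the top of the spindle checkpoint, was at -2.64, -2.98, -2.85 and -2.98, with replicate 1 highest and the largest SD of the 33 genes at 0.16. Plk1, which acts in centrosome maturation and mitotic exit, was at 2.80, 2.70, 2.66 and 2.59, with replicate 1 highest and replicate 4 lowest. In these values the order of Aurkb and that of Plk1 over the arrays ran in opposite directions. The order of Plk1 depended on the processing, since with normexp correction of median signals it was highest on replicate 2 and lowest on replicate 4. The Aurkb and Ttk levels each rest on 1 spot per array, so noise between spots is not measured for them. Signals of the Ttk spot ran from 237 to 396.

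The other checkpoint and spindle genes spanned less than 1.25-fold. Cdc20, the activator of the anaphase-promoting complex, was at -0.39, -0.51, -0.48 and -0.19, with replicate 4 apart from the rest. The Cdc20 level rests on 1 spot per array. Bub1 and Bub1b, kinases of the spindle checkpoint, were at -2.09 ± 0.067 and -1.54 ± 0.13. The Bub1b level rests on 1 of its probes, and it became -3.32 without replicate 1, where the dimmer probe then counted as detected on all arrays. The spindle motor Kif11 was at -2.32 ± 0.041 and the spindle microtubule protein Nusap1 at -0.59 ± 0.093.

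The helicase and its loaders were measured except for Mcm5. The helicase subunits Mcm2, Mcm3, Mcm4, Mcm6 and Mcm7 were at 2.55 ± 0.042, -1.22 ± 0.11, -0.52 ± 0.048, -0.62 ± 0.10 and 2.93 ± 0.032. The lowest of these SDs was that of Mcm7, with values of 2.89, 2.91, 2.94 and 2.96. Its evenness depended on leaving out outlier spots: the Mcm7 probe spanned 0.074 between arrays without them and 0.22 with them kept. The loading factors Cdc6 and Cdt1 were at -1.61 ± 0.098 and -3.20 ± 0.069. Gins1 and Gins2 belong to the GINS complex, which joins the helicase when origins fire. Gins1 was at 1.26 ± 0.074, whereas Gins2 was at -2.72, -2.71, -2.70 and -2.41, with replicate 4 above 3 nearly equal values. Pcna, the sliding clamp of the polymerases, did the same with 1.38, 1.38, 1.39 and 1.61. The Gins2 level rests on 1 spot per array and that of Pcna on 2.

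The nucleotide enzymes and G1/S regulators ranged from the evenest gene of the set to the one with the widest range. Rrm1 and Rrm2, the subunits of ribonucleotide reductase, were at -0.49 ± 0.11 and 1.34 ± 0.058. Tyms, which makes thymidylate, was at -1.86 ± 0.058, and Tk1, which salvages thymidine, at 1.21 ± 0.058. The G1/S cyclins Ccne1 and Ccnd1 were at 0.87 ± 0.037 and 0.32 ± 0.021. E2f1, a transcription factor of the E2F family, was at 1.77, 1.76, 1.76 and 1.77, and its SD of 0.0053 over 4 single spots was the lowest of the set. Noise between spots is not measured for E2f1. For scale, spots of the Ccnd1 probe printed 10 times had SDs of 0.047 to 0.074 within an array. Brca1, which repairs broken DNA by homologous recombination in S and G2 phase, was at -2.86, -2.49, -2.67 and -2.72, with the widest range of the 33 genes, 1.29-fold. The Brca1 level also rests on 1 spot per array, with signals from 242 to 467.

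**Figure D1:**
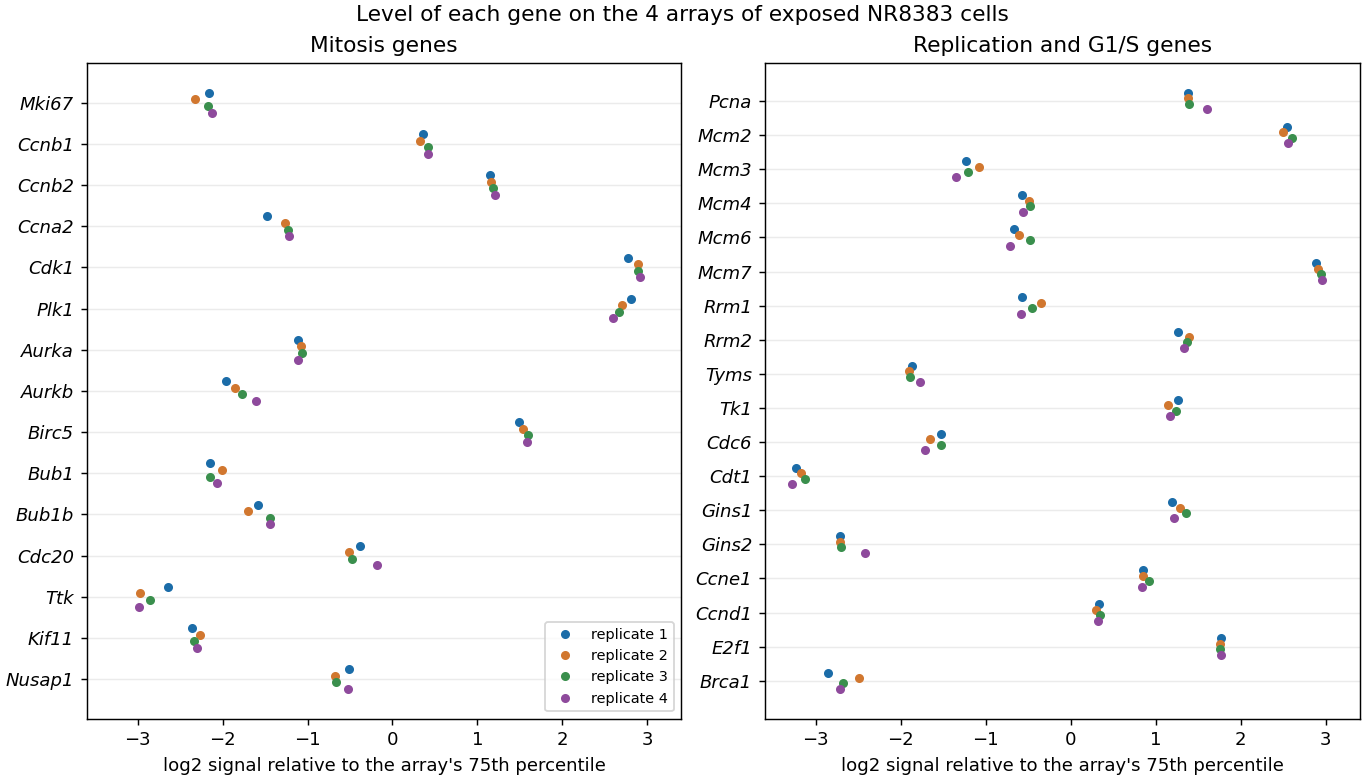
Each point is the log2 level of a gene on 1 of the 4 arrays, relative to that array's 75th percentile, for the 15 mitosis genes (left) and the 18 replication genes with a probe (right). The 4 points of E2f1 coincide, Pcna and Gins2 have replicate 4 apart on the right, and positions of different genes are not comparable as abundance.

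The spread between arrays, which holds labelling and hybridisation as well as culture, was small for the whole set. The median SD was 0.069 over the 33 members, 0.087 for mitosis genes and 0.064 for replication genes, against 0.093 over all 8685 genes detected on 4 arrays. Dim probes vary more on an array, and among the 5245 genes whose mean level lay within the range of the members the median SD was 0.076. Of the 33 members 15 lay above that value. The levels of 11 members are means of several detected probes, as are those of 1712 of all genes, and SDs were not matched for this. None of the 33 spanned over 2-fold, a span that 1.11% of all detected genes reached.

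**Figure D2:**
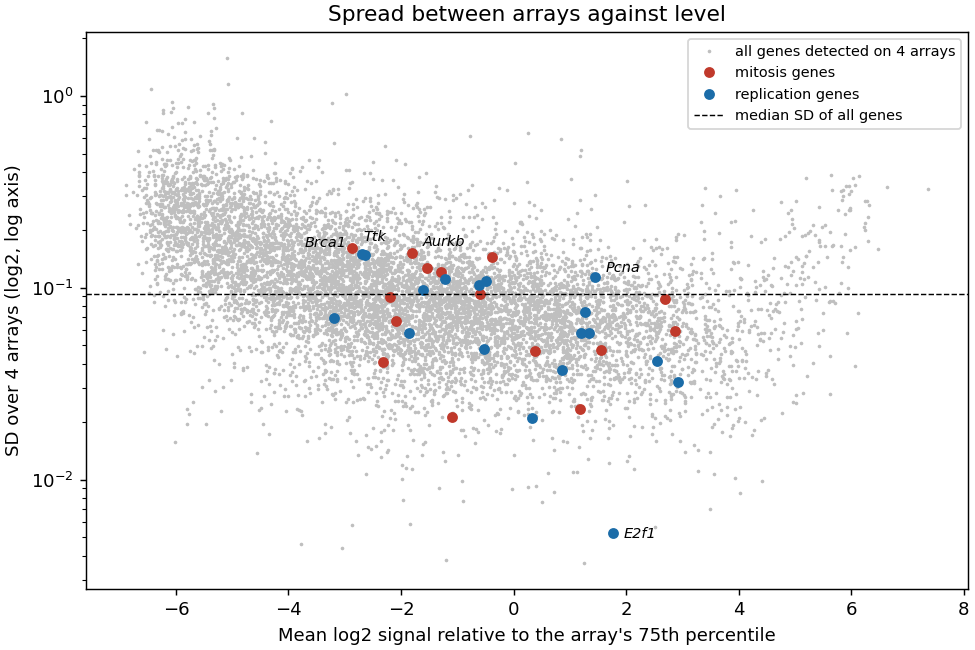
Each grey point is a gene detected on all 4 arrays, with its mean log2 level (horizontal) and its SD over arrays on a log axis (vertical). Coloured points are the 15 mitosis and 18 replication genes, which lie on both sides of the dashed all-gene median of 0.093, with E2f1 lowest at 0.0053.

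On replicate 4 mitosis and replication genes lay on different sides of their means. There 12 of 15 mitosis genes lay above their own mean over the arrays, with a median deviation of 0.042, and 7 of 18 replication genes did, with a median of -0.031. Of all detected genes 53.0% lay above their mean on that array, with a median of 0.0077. On replicate 3 both groups were mostly above, 10 of 15 and 14 of 18, against 53.0% of all detected genes. After normexp correction 7 of 15 and 12 of 18 were above there, against 36.5% of all. On replicate 1 both were mostly below, with 5 of 15 and 4 of 18 above, against 47.6% of all. This too changed with normexp correction, where 7 of 15 and 8 of 18 were above on replicate 1, against 69.3% of all. Under the 5 other ways of scaling, correcting or choosing probes, the replicate 4 counts were 11 to 13 of 15 and 4 to 6 of 18, but the share of all genes moved too. With normexp correction 13 of 15 and 6 of 18 were above, against 65.1% of all genes. Scaled to the 75th percentile of all probes, 11 of 15 and 4 of 18 were above, against 44.4%. These deviations are smaller than 1.1-fold at the median, genes of 1 array are not independent, and the difference was not tested. The median deviation of all genes ran from -0.0090 to 0.0077 over the arrays, and with normexp correction from -0.044 to 0.052, which is as large as the deviations of the members.

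**Figure D3:**
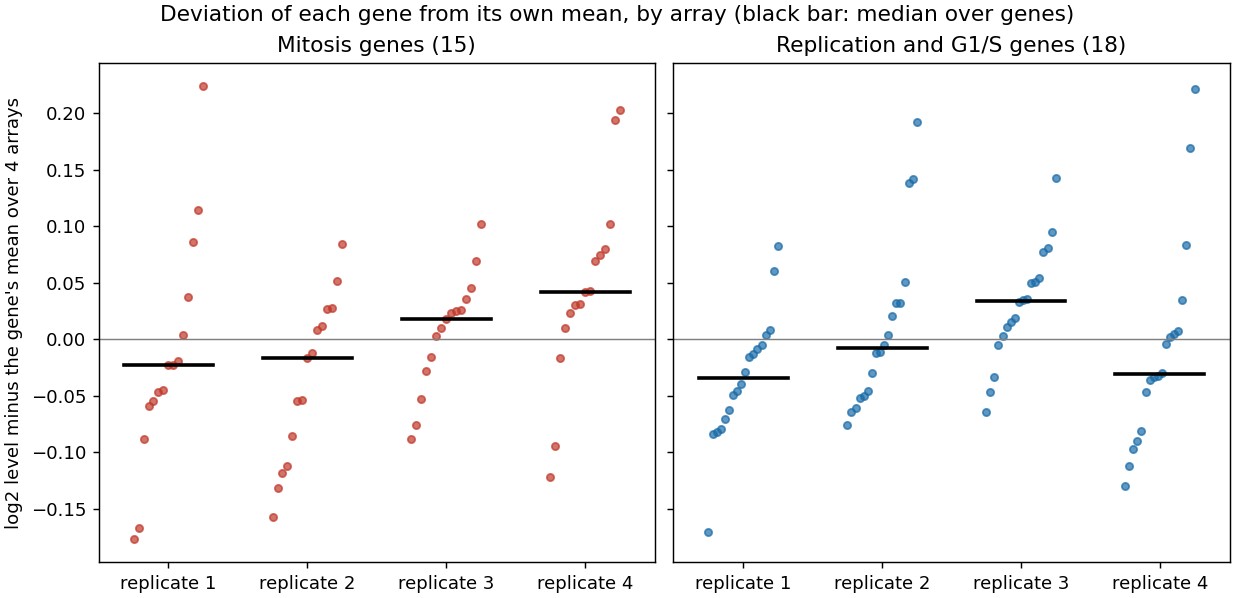
Each point is a gene's log2 level on an array minus its mean over the 4 arrays, for mitosis genes (left) and replication genes (right), and the black bar is the median. On replicate 4 the bar is at 0.042 for mitosis genes and -0.031 for replication genes, while on replicate 1 both bars lie below 0.

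Of the 50 member probes, 21 were detected on all arrays and printed 2 or 10 times per array, which allowed a test of arrays against the noise between spots. In limma's moderated F test, adjusted over all 1742 such probes by the Benjamini-Hochberg method, 6 of the 21 differed between arrays. Over all 1742 probes 42.6% did. The 6 were among 9 member probes printed 10 times, where 65.3% of all such probes differed, and 0 of the 12 printed 2 times passed (9.09% of all such probes). For those 12 the unadjusted p was below 0.05 for 1 probe, that of Pcna at 0.047 (limma adjusted p = 0.094). The test cannot part cultures from labelling and hybridisation, because each culture had 1 array. It also treated spots as independent and did not pair spots at the same place on different arrays, although such spots could deviate alike. For example, a spot of the Mki67 probe was at 0.036, 0.203, 0.077 and 0.160 on replicates 1 to 4. Another was at -0.195, -0.198, -0.152 and -0.104. Such shared deviations count as noise in the test, so its p-values do not measure array differences at matched spots.

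Among replication genes the probes of Mcm3, Rrm1 and Rrm2 were highest on replicate 2. The Mcm3 probe was at 2.10, 2.25, 2.15 and 2.06 on replicates 1 to 4, a difference of 0.19 between the highest and lowest array (limma adjusted p = 7.33e-05). The Rrm1 probe was at 2.26, 2.40, 2.36 and 2.31 (limma adjusted p = 0.00141), and that of Rrm2 at 3.79, 3.85, 3.78 and 3.72 (limma adjusted p = 0.00902). The second, singly printed probe of Mcm3 and that of Rrm1 were also highest on replicate 2, at -4.40 and -3.10, whereas that of Rrm2 was highest on replicate 3, at -1.04. The Mcm3 result rested on 31 of 40 spots, and with the outlier spots put back its limma adjusted p was 0.436.

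The probes of Mcm2 and Ccnd1 printed 10 times were highest on replicate 3 and lowest on replicate 4, by 0.11 for Mcm2 (limma adjusted p = 0.0459) and 0.099 for Ccnd1 (limma adjusted p = 0.0208). The second probes of both genes were instead highest on replicate 4, at 1.35 for Mcm2 and 0.099 for Ccnd1, and lowest on replicate 2, at 1.20 and -0.017. Plk1 was the mitosis gene that passed, with the largest difference of the 6, 0.21 from replicate 1 to replicate 4 (limma adjusted p = 8.98e-05). The probes of Cdk1 and Mki67 differed by 0.13 and 0.12 (limma adjusted p = 0.0566 and 0.101), and that of Mcm7 by 0.074 (limma adjusted p = 0.725). The Cdk1 probe passed in 5 of 11 alternatives, among them median centring (limma adjusted p = 0.0475). All 6 differences were below 1.2-fold. From raw median signals with normexp correction the probes of Mcm2 and Mcm3 passed and the other 4 did not, and Plk1 was then highest on replicate 2 (limma adjusted p = 0.818). Without replicate 4 the probes of Plk1, Mcm3 and Rrm1 passed. Those of Mcm3 and Rrm2 did not pass without replicate 2 (limma adjusted p = 0.0858 and 0.115). Without replicate 3 those of Mcm2 and Ccnd1 did not (limma adjusted p = 0.771 and 0.156). Without replicate 1 those of Mcm2 and Rrm1 did not (limma adjusted p = 0.0616 and 0.0552). Of the 6, Plk1 alone passed whichever replicate was left out.

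**Figure D4:**
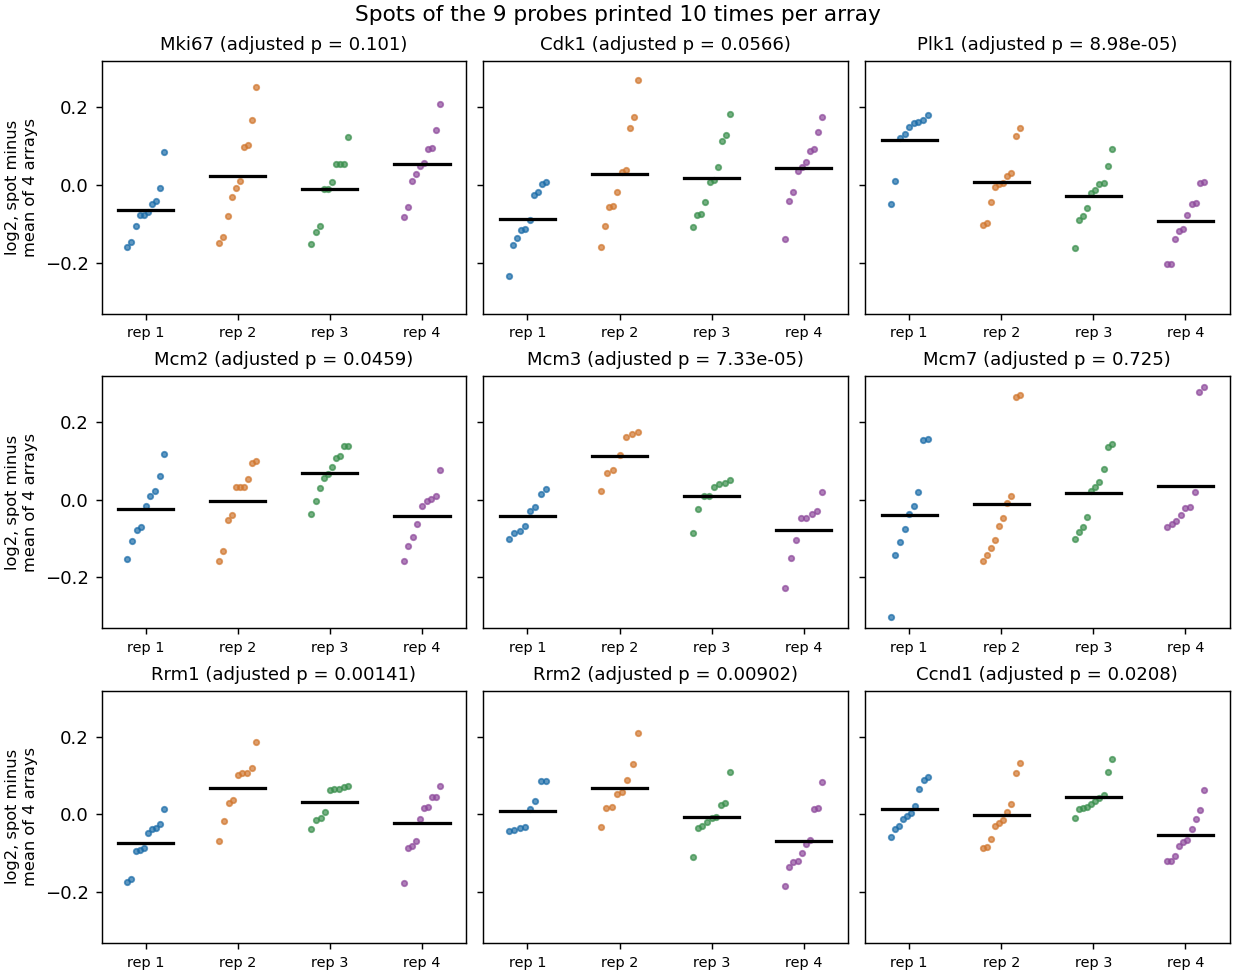
Each point is a spot of a member probe printed 10 times per array, as log2 level minus the mean of the 4 array means, and black bars are array means. Plk1 is highest on replicate 1, Mcm3, Rrm1 and Rrm2 are highest on replicate 2, and the p-values above the panels are from limma's F test with Benjamini-Hochberg adjustment.

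Probes of the same gene disagreed in level. Of the 14 members with several probes, 11 had more than 1 probe detected on all arrays, and in 7 of these 11 the detected probes spanned over 3 on the log2 scale, against 31.8% of all genes with several detected probes. The probes of Mcm3 were at 2.14 and -4.57, of Rrm1 at 2.33 and -3.31, of Rrm2 at 3.79 and -1.11, and of Ccna2 at 0.67 and -3.27. The 3 probes of Mcm4 were at 0.68, 0.46 and -2.72, and the 4 probes of Mki67 at -0.05, -1.17, -3.31 and -4.26. In Aurka the probe for a curated RefSeq transcript was at 1.42 and the probe for a predicted one at -3.61. The evenness of the Aurka gene mean therefore joins a probe that was lowest on replicate 1 with a probe that was highest there.

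The remaining members with several probes were Ccnb2, Mcm2, Tk1 and Ccnd1, whose detected probes spanned 0.57 to 2.51, and Bub1b, Gins2 and Brca1, each with 1 probe below detection. The dim Bub1b probe was detected on 3 arrays and the dim Gins2 probe on 2. In Brca1 the probe for the curated transcript stayed below that mark on every array, and the level given comes from the probe for a predicted transcript. With dim probes kept, the gene levels became -3.57 for Bub1b, -4.62 for Gins2 and -5.26 for Brca1. In all 11 genes with several detected probes the brightest probe was a most often printed one. Over all 261 named genes whose detected probes were printed unequally often this held for 79.7%.

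**Figure D5:**
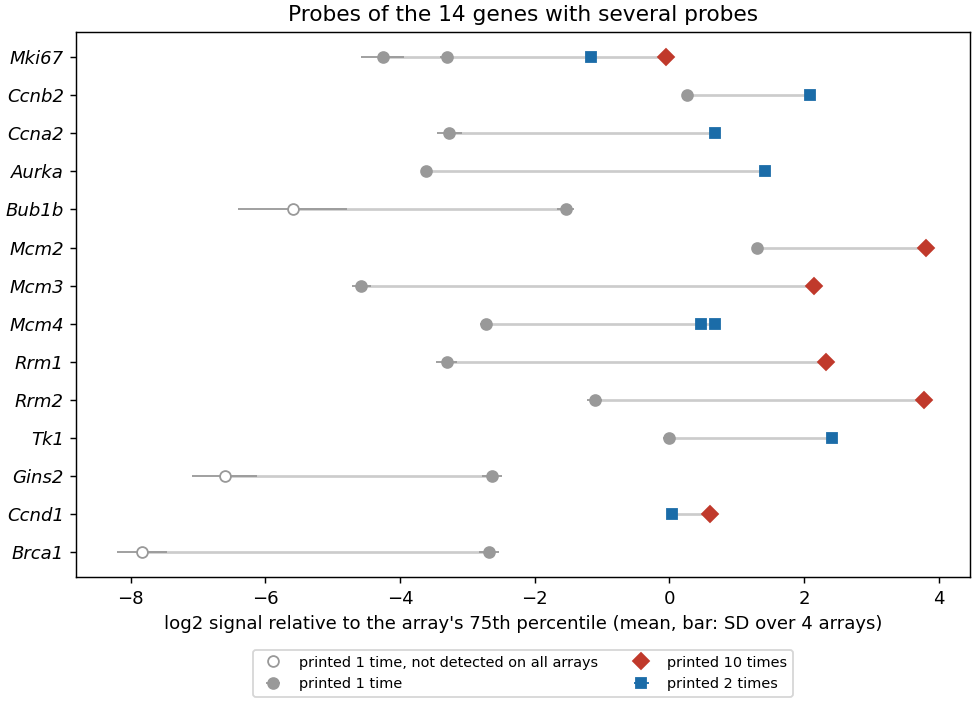
Each marker is a probe of 1 of the 14 members with several probes, at its mean log2 level with a bar for the SD over 4 arrays, and its shape gives how often it was printed. In each row the diamonds (10 times) or squares (2 times), where present, lie right of the grey circles (1 time), with gaps of up to 6.72 in Mcm3.

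Other genes of the same machinery, listed by their known roles, were detected on all arrays in 103 of 118 cases (87.3%), and none of the 103 spanned over 2-fold. Of 15 origin licensing and helicase genes, 14 were detected. All 6 subunits of the origin recognition complex, Orc1 to Orc6, were among them, with SDs from 0.045 for Orc1 to 0.31 for Orc6. Their levels were low, from -6.35 for Orc5 to -4.34 for Orc6, where the lowest detected level on replicate 1 was -6.81. The helicase activator Cdc45 was at 2.16 ± 0.048 and geminin, the inhibitor of Cdt1 (Gmnn), at -2.43 ± 0.11. Of 24 fork and nucleotide genes 22 were detected, among them the ligase Lig1 at 2.63 ± 0.035 and the flap nuclease Fen1 at 2.23 ± 0.093.

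Kinetochore genes were detected least often, in 12 of 17 cases (70.6%), and spindle and cytokinesis genes in 28 of 31 (90.3%). The kinetochore genes short of detection on all arrays were Cenpf, Cenpi, Cenpk, Knl1 and Sgo2, with Cenpf detected on 3 arrays and Knl1 on 1. In the other lists Mcm9, Pola1, Dnmt1 and Hmmr were detected on no array, and Kif18a and Kif20b on 2 and 1. Pola1 encodes the catalytic subunit of the primase polymerase and Dnmt1 the maintenance DNA methyltransferase, and each had 1 probe. The Pola1 probe gave signals of 11.3, 15.3, 12.3 and 12.3, positive and significant over background by the looser flag on all 4 arrays, whereas the Dnmt1 probe gave 4.73, 4.26, 5.08 and 4.21 and passed that flag on none. Of the 5 kinetochore genes named above, Cenpf, Cenpi and a probe of Knl1 passed the looser flag on all 4 arrays. Sgo2 passed it on 3 and Cenpk on 2.

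Regulators that brake or open the G1/S gate were mostly detected. Of 8 inhibitors of cyclin-dependent kinases 6 were detected, with Cdkn1b (p27) at -0.66 ± 0.11, Cdkn2c at -2.91 ± 0.13 and Cdkn1a (p21) at -1.59 ± 0.038, its probes 6.41 apart. Cdkn1c was detected on no array and Cdkn2a on 3. Of 9 G1 cyclins and kinases 8 were detected, with Cdk4 at 1.70 ± 0.070, Ccnd2 at -0.37 ± 0.10 and Ccnd3 at -0.54 ± 0.055. Cdk6, which can take the place of Cdk4, was not well above background on any array with any of its 3 probes.

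Among E2F, pocket protein and DREAM genes 13 of 14 were detected. The retinoblastoma gene Rb1 was at -3.32, -3.41, -3.22 and -2.91, with replicate 4 highest, and its relative Rbl2 at -3.75 ± 0.060, its probes 4.01 apart. Rbl1 was detected on 3 arrays. The repressor-type gene E2f7 was at -6.26 ± 0.31, near the floor of detection, and E2f4 at -0.55 ± 0.030. Mybl2 and Foxm1, activators of mitosis genes, were at 0.34 ± 0.18 and 0.12 ± 0.057, and Mybl2 was lowest on replicate 4 at 0.07 against 0.38 to 0.48 elsewhere.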

How the data were processed

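The authors deposited 1 Agilent Feature Extraction 11.0.1.1 file per 1-colour array. Per the file headers, the authors' processed signal intensity had background subtracted and spatial trends removed by that software, array by array, with no normalization between arrays. Flags of 0 or 1 mark detection, and other deposited flags mark saturated and outlier spots.

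Control spots and outlier spots were left out here. Log2 intensity was averaged over a probe's spots and scaled to each array's 75th percentile over the 17807 of 45598 probes detected on all arrays (most usable spots well above background). Accessions without version named 21109 probes through a rat gene table (GRCr8). A gene's level is the mean of its probes detected on all arrays. The spot test used limma 3.58.1 variance moderation in R 4.3.3, and summaries used Python 3.11.15. On simulated data with 1742 probes the share of changed probes found was 22% at a log2 change of 0.1, 68% at 0.25, 82% at 0.5 and 100% at 1 (50 probes per size), and 2 of 1542 unchanged probes were called. Simulated spots were independent, whereas real spots could deviate alike across arrays, and 42.6% of the real probes were called. These shares check the computation and do not give the power or false calls of the test on these data.

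All 34 members were named, with other cell cycle genes not detected on all arrays and listed regulators. The other cell cycle genes with values (Orc1 to Orc6, Cdc45, Gmnn, Lig1 and Fen1) were chosen after their values were seen. Members and lists were chosen with earlier results of these data known. Slide and scan were shared, so neither was tested.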

Additional observations from a re-analysis of the deposited data

Results flagged for a closer look

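In 2 of 33 members, Pcna and Gins2, a single array lay far from the other 3 by Dixon's ratio of the gap to the whole range at the 95% level. Chance alone gives about 1.65 of 33, and 6.13% of all detected genes passed. Gins2, with 1 spot per array, had a ratio of 0.941, with replicate 4 at -2.41 against -2.72 to -2.70 on the others. Pcna had a ratio of 0.931, with replicate 4 at 1.61 against 1.38 to 1.39. Both are replication genes and were higher on replicate 4, the array on which most replication genes lay below their own mean.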

How the results depend on the processing

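The count of 33 detected members, the count of 0 members spanning over 2-fold and the median SD kept within 1.5 times of their values under every alternative run for them. Leaving out each replicate gave 33 detected members, 0 over 2-fold, and a median SD of 0.0633 to 0.0690. The number of member probes that differed between arrays, 6 of 21, moved by over 1.5 times under 2 alternatives. It was 2 with normexp correction (offset 50) of median signals and 3 without replicate 4 (3 to 6 when each replicate was left out). It was 7 with median centring or quantile normalization and 8 with the 75th percentile of all probes. Single gene levels moved by over 1 SD more often: all 33 under the 4 alternatives that change the scale, 23 with normexp, 20 without replicate 1, 11 with the brightest probe, 6 without replicate 4, 3 with no filter, and 1 each with detection on 3 arrays, with outlier spots kept, without replicate 2 and without replicate 3. No paired analysis was possible because there was 1 group. The scale changed with median centring, the 75th percentile of all probes, quantile normalization and a looser flag. Signal over background limits what can be said of genes short of detection, and 8 of 15 such cell cycle genes were detected on all arrays with the looser flag. Over all 16581 named genes, the number detected on all arrays rose from 8685 to 10158 with that flag.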
